A study of Mus musculus with 12 samples.

Results

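The small leucine-rich proteoglycans are secreted proteins of the extracellular matrix, and 8 of them (Dcn, Bgn, Aspn, Lum, Fmod, Prelp, Omd and Ogn) were followed here together with Cilp, a matrix protein of cartilage and other connective tissues, while mouse myoblasts differentiated. The members were selected for how their signals ran over the stages of these same 12 arrays, so every stage value below is a description and carries no test. Each probe was assigned through its RefSeq accession and a reference table of gene symbols. All 9 members were found, each by 1 probe among the 37246 probes and 19259 named genes of the array, and each of the 9 probes passed the scanner's background test on every array of some stage.

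The cells were C2C12, an immortalised line of mouse myoblasts that fuse into myotubes when serum is lowered. The groups were proliferating cells in 10% fetal bovine serum, taken at 80 to 90% confluence, and cells kept for 2, 5 or 8 days in 2% horse serum. The study's design gives 3 independent experiments per stage, so there were 12 arrays in 4 groups of 3. All groups share 1 cell line, so the spread between arrays is that of repeat cultures and hybridisations of this line.

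In a small leucine-rich proteoglycan a run of leucine-rich repeats forms a curved core protein, and most members carry chondroitin, dermatan or keratan sulfate chains. The core proteins bind collagen fibrils and limit how the fibrils thicken, and several of them also bind growth factors such as transforming growth factor β, which they hold in the matrix. Classes I to III are told apart by sequence: decorin, biglycan and asporin form class I, lumican, fibromodulin, Prelp and osteomodulin belong to class II, and osteoglycin belongs to class III. Cilp is no member of the family, but it too is secreted into the matrix, and the human protein is known to bind transforming growth factor β1.

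The processed signal of the scanner is given in its own units, and levels were compared after log2 conversion and subtraction of each array's 75th percentile, which lay between 1256 and 1934 units. Testing covered the 22962 probes that stood well above background throughout some stage, on its 3 arrays, and each difference below is the later stage minus the earlier one with the standard error of a limma fit, n = 3 arrays per stage. The stage labels matched the muscle genes. Myogenin (Myog), which starts terminal muscle differentiation, had median signals of 893 at proliferation, 4713 at day 2, 131994 at day 5 and 52127 at day 8. Embryonic myosin heavy chain (Myh3) had medians of 174, 1299.6, 45592 and 51607 units at those stages, and muscle creatine kinase (Ckm) 16.3, 77.8, 2504 and 2049. The 12 arrays lay on 3 slides. Slide 1 held the 3 proliferation arrays and day 2 replicate 1, slide 2 held the other day 2 arrays with day 5 replicates 1 and 2, and slide 3 held day 5 replicate 3 with the 3 day 8 arrays. Thus no slide holds proliferation together with day 5 or day 8, and for those comparisons slide and stage are linked only through the chain of shared slides. In RNA from whole cultures, fewer cells of a type and less RNA per cell cannot be told apart.

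The promoter windows of 4 members are printed because they show what sequence stands before genes that were higher together. RefSeq windows of build GRCm38.p6, from 250 bases before the gene start to 50 after, were at hand for 7 of the 9 members, all but Dcn and Lum. Capitals mark each E-box, CANNTG, the motif that muscle helix-loop-helix factors such as myogenin bind. The windows run 5′ to 3′ on the strand of the gene, which is the plus strand for Cilp at chr9:65264930-65265229, Ogn at chr13:49607765-49608064 and Bgn at chrX:73483351-73483650, and the minus strand for Prelp at chr1:133921352-133921651.
Cilp: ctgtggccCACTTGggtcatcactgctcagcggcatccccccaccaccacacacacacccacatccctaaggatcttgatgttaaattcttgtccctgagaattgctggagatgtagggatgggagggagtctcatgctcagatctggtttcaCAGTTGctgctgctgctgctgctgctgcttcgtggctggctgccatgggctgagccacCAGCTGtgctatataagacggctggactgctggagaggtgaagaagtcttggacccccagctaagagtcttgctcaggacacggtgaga
Ogn: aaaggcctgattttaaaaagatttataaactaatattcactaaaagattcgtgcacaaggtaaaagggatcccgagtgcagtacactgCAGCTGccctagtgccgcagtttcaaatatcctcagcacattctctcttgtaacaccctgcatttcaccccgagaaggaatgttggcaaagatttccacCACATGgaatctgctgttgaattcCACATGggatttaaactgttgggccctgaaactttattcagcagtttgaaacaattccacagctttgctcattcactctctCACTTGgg
Prelp: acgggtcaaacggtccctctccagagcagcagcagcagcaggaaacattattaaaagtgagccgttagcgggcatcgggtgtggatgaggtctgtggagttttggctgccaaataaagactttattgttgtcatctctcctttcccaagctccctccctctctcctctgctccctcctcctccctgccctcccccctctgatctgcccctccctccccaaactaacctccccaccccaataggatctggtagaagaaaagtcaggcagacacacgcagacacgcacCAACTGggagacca
Bgn: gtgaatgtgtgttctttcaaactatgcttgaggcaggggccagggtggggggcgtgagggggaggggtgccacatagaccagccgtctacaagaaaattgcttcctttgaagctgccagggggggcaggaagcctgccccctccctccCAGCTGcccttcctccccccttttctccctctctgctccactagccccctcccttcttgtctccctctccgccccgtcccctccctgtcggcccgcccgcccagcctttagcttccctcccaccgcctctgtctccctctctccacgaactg

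The Cilp window held 3 E-boxes, with CACTTG starting 242, CAGTTG 97 and CAGCTG 39 bases before the gene start. The Ogn window held 4, the first of which was CAGCTG at 162 bases before the start. Bgn had 1, CAGCTG at 102 bases before the start, and Prelp had 1, CAACTG at 36 bases after it. Of the windows not printed, Aspn had 2 E-boxes, Fmod had 1 and Omd had 0. An E-box is common in such windows, and 72.3% of 32841 RefSeq windows of the same length hold at least 1, searched on both strands. The form CAGCTG, itself an E-box, stands in 16.3% of them, and among the members in Cilp, Ogn and Bgn, all of which are printed. TATAAA stood in the windows of Aspn and Ogn and in 13.6% of all windows. No match to the AP-1 motif TGANTCA (7.81% of all windows), to the MEF2 motif (3.19%) or to the CArG box (1.63%) was found in the 7 windows. A match is a run of letters and not a measured binding site, and a missing match says only that these letters are not in the window.

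Among the class I members, decorin and asporin were higher at every later stage than at proliferation, and biglycan was higher at days 5 and 8. Decorin (Dcn) carries a single chondroitin or dermatan sulfate chain and binds transforming growth factor β and myostatin. Its processed signal was 8686, 7786 and 8861 at proliferation, 30036, 24032 and 21875 at day 2, 122999, 131145 and 159540.2 at day 5 and 152638, 169066 and 182139 at day 8. The arrays of proliferation, day 2 and day 5 did not overlap, while days 5 and 8 did. The log2 difference from proliferation was 1.89 ± 0.19 at day 2, 4.38 ± 0.19 at day 5 and 4.64 ± 0.19 at day 8, the last being 24.9-fold.

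Biglycan (Bgn) carries a pair of glycosaminoglycan chains and in muscle binds the dystrophin-associated complex. Its signal was 202329, 190050.3 and 265999 at proliferation, 336238, 244746 and 149259 at day 2, 379947, 343093 and 385942 at day 5 and 335844, 289062 and 341693 at day 8. No array was saturated at this probe, whose brightest spot stood at 58.6% of the saturation level. The day 2 arrays spread over the whole range of the proliferation arrays and beyond, with replicate 1 above and replicate 3 below all of them. The day 5 and day 8 arrays all stood above the proliferation arrays, by 1.12 ± 0.29 and 0.89 ± 0.29 on the log2 scale (2.18-fold and 1.86-fold), and overlapped each other after scaling. Bgn had the smallest difference of the 9 members at day 8. It had the smallest at day 5 too, but under normexp those of Fmod and Omd (0.88 each) were smaller, and with the slide as a block those of Omd and Lum were (1.66 for Lum, against 1.97 for Bgn).

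Asporin (Aspn), a class I protein with a stretch of aspartic acid in place of the usual chain sites, had signals near background in growing cells. Its signal was 12.7, 17.3 and 23.4 at proliferation, where 1 of 3 arrays was well above background. It was 47.3, 24.5 and 22.8 at day 2, 123, 105.5 and 106.6 at day 5 and 99.9, 111 and 121 at day 8, all of them above background. After scaling, the day 2 arrays lay above the proliferation arrays and below the day 5 arrays, while days 5 and 8 overlapped. The differences from proliferation were 1.102 ± 0.31, 3.05 ± 0.31 and 3.01 ± 0.31 at days 2, 5 and 8. With normexp, another background correction that pulls weak signals together, they were 0.50, 1.47 and 1.47.

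**Figure D1:**
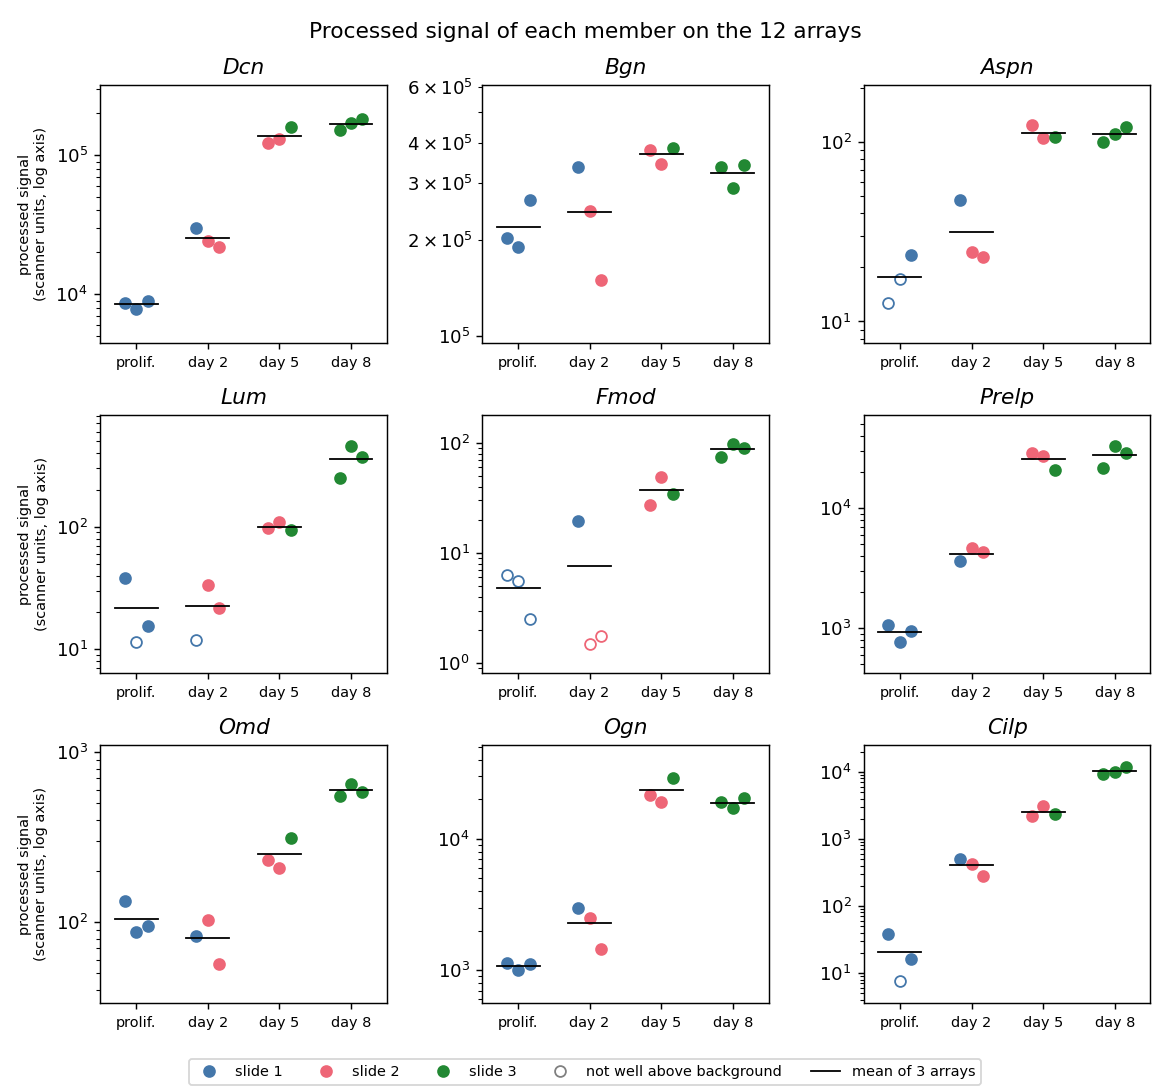
Processed signal (scanner units, log axis) of each member on the 12 arrays, by stage. Points are arrays coloured by slide, open points were not well above background, and the line is the mean of 3 arrays. Dcn, Prelp, Ogn and Aspn lie at similar levels at days 5 and 8, and Cilp, Lum, Omd and Fmod lie higher at day 8 than at day 5.

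The 4 class II members were higher at days 5 and 8 than at proliferation, and at day 2 the Prelp arrays alone stood apart from those of proliferation. Prelp, a proteoglycan with an arginine- and proline-rich start that binds heparin and collagen, had signals of 1065, 763 and 949 at proliferation. It reached 3603, 4684 and 4269 at day 2, 28909, 27314 and 20571 at day 5 and 21552, 32980.0 and 28702 at day 8. Its first 3 stages did not overlap one another, and days 5 and 8 did. The differences from proliferation were 2.50 ± 0.14, 5.14 ± 0.14 and 5.22 ± 0.14 at days 2, 5 and 8, the last being 37.4-fold, and its standard error was the smallest of the 9 members.

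Lumican (Lum), a keratan sulfate proteoglycan of cornea, tendon and skin, was weak early on. Its signal was 38.3, 11.5 and 15.6 at proliferation and 11.9, 33.8 and 21.9 at day 2, with 2 of 3 arrays above background at each of these stages. It was 97.9, 109 and 93.7 at day 5 and 253, 456 and 369 at day 8. The first pair of stages overlapped, the day 5 arrays stood above both, and the day 8 arrays stood above the day 5 arrays. The difference from proliferation was 0.43 ± 0.40 at day 2, 2.75 ± 0.40 at day 5 and 4.53 ± 0.40 at day 8 (23.1-fold). Under normexp the day 5 and day 8 differences were 1.34 and 2.68.

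Fibromodulin (Fmod), which binds collagen fibrils and slows their growth, was not well above background on any proliferation array. Its signal was 6.25, 5.57 and 2.52 at proliferation and 19.6, 1.49 and 1.76 at day 2, where replicate 1 alone was above background. It was 27.5, 49.4 and 34.3 at day 5 and 74.3, 97.3 and 90.4 at day 8, above background on all 6 arrays and higher on each day 8 array than on each day 5 array. Against a floor set for proliferation, the mean of the later Fmod arrays was 4.68-fold higher at day 5 and 11.1-fold higher at day 8. That floor is the lowest signal that was well above background on each proliferation array. A signal above this floor can still fail the background test, so these folds are not strict minimum values. The fitted differences of 3.37 ± 0.82 and 4.61 ± 0.82 rest on signals below background, and under normexp they were 0.88 and 1.53.

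Osteomodulin (Omd), a keratan sulfate proteoglycan of mineralised tissue that supports the attachment of osteoblasts, was not above its proliferation arrays at day 2. Its signal was 132, 87.4 and 94.2 at proliferation, 83.2, 104 and 56.5 at day 2, 232, 209 and 312 at day 5 and 555, 651 and 585 at day 8. The first pair of stages overlapped, and each of the later stages stood above all arrays of the stage before it. The differences from proliferation were -0.07 ± 0.25, 1.62 ± 0.25 and 2.86 ± 0.25 at days 2, 5 and 8, and the day 5 value was 0.88 under normexp.

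Osteoglycin (Ogn), the class III member, is a small keratan sulfate proteoglycan first isolated from bone. Its signal was 1130.4, 998 and 1116 at proliferation, 2969, 2491 and 1449.6 at day 2, 21668, 19135 and 29202 at day 5 and 18884, 17094 and 20364 at day 8. The day 2 arrays lay above the proliferation arrays and below the day 5 arrays. Day 8 overlapped day 5, with a difference of -0.32 ± 0.29. The difference from proliferation was 1.34 ± 0.29 at day 2, 4.77 ± 0.29 at day 5 (27.3-fold) and 4.44 ± 0.29 at day 8 (21.8-fold).

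Cilp, the cartilage intermediate layer protein, had the largest difference of the 9 members at each of the later stages, though under normexp that of Prelp was larger at days 2 and 5 (2.60 and 5.10). Its signal was 38.7, 7.68 and 16.3 at proliferation, where 2 of 3 arrays were well above background. It was 506, 418 and 283 at day 2, 2182, 3077 and 2339 at day 5 and 9301, 10069 and 11744 at day 8, and no array of a stage overlapped any array of another. The difference from proliferation was 4.85 ± 0.44 at day 2 (28.8-fold), 7.57 ± 0.44 at day 5 (190-fold) and 9.58 ± 0.44 at day 8 (766-fold). Among all 22962 probes tested, Cilp had rank 1 for the largest increase at day 2, rank 16 at day 5 and rank 5 at day 8. The folds rest on a proliferation level near background, and under normexp the 3 differences were 2.33, 4.74 and 6.97.

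**Figure D2:**
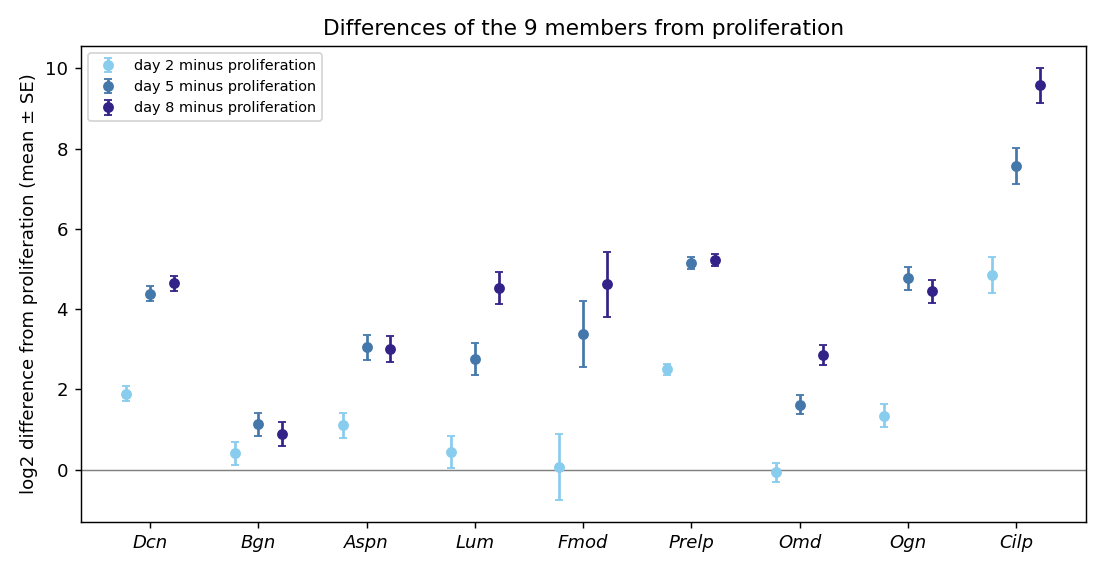
Log2 difference of each member from proliferation (y axis) at day 2, day 5 and day 8; points are means of 3 arrays against 3 and bars are standard errors of the limma fit. Cilp reaches 9.58 at day 8, Bgn stays at 0.89, and at day 2 Lum, Fmod and Omd lie near 0.

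Read step by step, the members differed in when they were higher. The step between proliferation and day 2 was the largest for Cilp alone, at 4.85 out of 9.58 (50.6%). For the other 8 members the largest step lay between day 2 and day 5, where it was 2.49 ± 0.19 for Dcn, 0.72 ± 0.29 for Bgn, 1.95 ± 0.31 for Aspn and 2.32 ± 0.40 for Lum. It was 3.32 ± 0.82 for Fmod, 2.65 ± 0.14 for Prelp, 1.69 ± 0.25 for Omd and 3.42 ± 0.29 for Ogn. Between day 5 and day 8 the members parted. Lum (1.78 ± 0.40), Cilp (2.01 ± 0.44), Omd (1.24 ± 0.25) and Fmod (1.24 ± 0.82) were higher still at day 8. Dcn (0.26 ± 0.19), Prelp (0.08 ± 0.14), Aspn (-0.05 ± 0.31), Bgn (-0.23 ± 0.29) and Ogn had overlapping arrays at days 8 and 5. Under normexp the largest step moved for several members. It was then the step to day 5 for Cilp (2.41 beside 2.33 for the step to day 2), the step to day 2 for Dcn (2.26 beside 2.23) and Prelp (2.60 beside 2.50), and the step to day 8 for Lum, Omd and Fmod (1.34, 1.61 and 0.65). Read within slides, the largest step of Bgn was that to day 2 (1.02 beside 0.95 for the step to day 5). No step was tested between members.

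Each step could also be read within a slide that held both stages, with 1 array against 3 on slide 1, 2 against 2 on slide 2 and 3 against 1 on slide 3. Within slide 1 the day 2 difference from proliferation was 5.29 for Cilp, 2.36 for Prelp, 2.22 for Dcn and 1.84 for both Aspn and Ogn. It was 2.53 for Fmod, against 0.06 ± 0.82 over all arrays, and the single day 2 array with Fmod above background lay on that slide. Bgn stood at 1.02 and Omd at 0.08 there, and Lum turned to -0.30. Within slide 2 all 9 members were higher at day 5 than at day 2, by 0.95 for Bgn to 4.54 for Fmod. Within slide 3 the day 8 minus day 5 difference was 2.02 for Cilp, 1.77 for Lum, 1.22 for Fmod and 0.81 for Omd. It was 0.29 for Prelp, -0.05 for Dcn, -0.07 for Aspn, -0.39 for Bgn and -0.76 for Ogn.

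**Figure D3:**
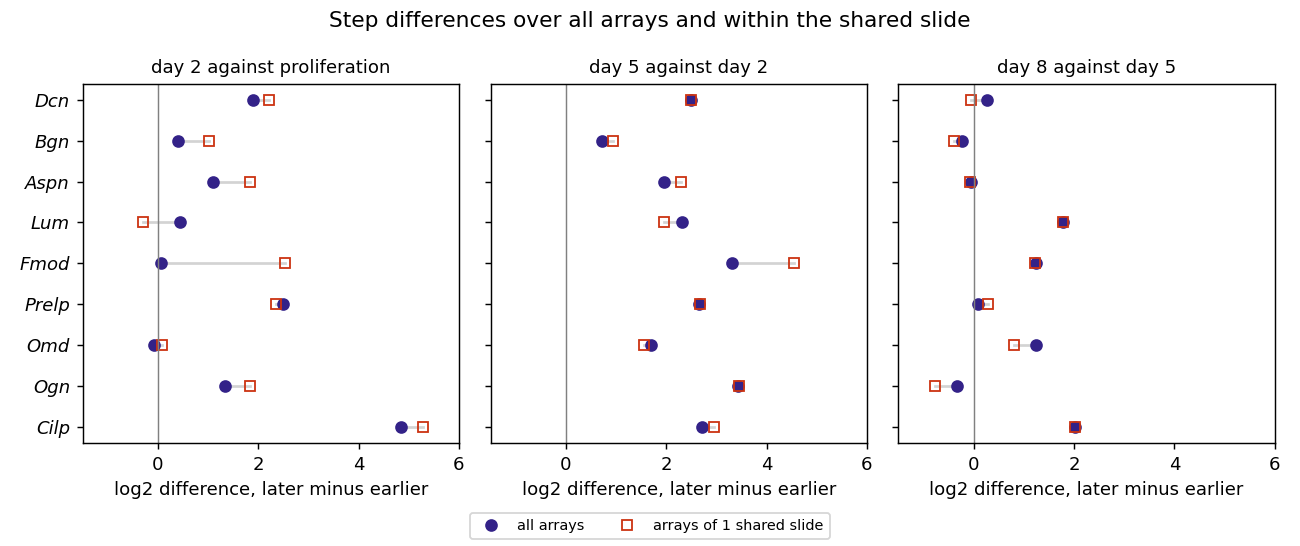
Log2 difference of each member (rows) for the 3 steps, later minus earlier stage, over all arrays (filled circles) and over the arrays of the 1 slide that held both stages (open squares). The values lie close together for most members; Fmod parts most, at day 2 and between day 5 and day 2, followed by Aspn and Lum at day 2.

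Against the threshold of limma adjusted p under 0.05, 5 members were counted higher at day 2 (Dcn, Aspn, Prelp, Ogn and Cilp), where 18.3% of all tested probes were. All 9 were at day 5, against 23.7% of tested probes, and all 9 at day 8, against 25.3%. Between day 5 and day 2 the count was 8, all but Bgn, beside 14.3% of tested probes. Between day 8 and day 5 it was 3 (Lum, Omd and Cilp), beside 5.87% of tested probes. No member was counted lower in any of the 5 comparisons, where 12.3%, 23.9%, 29.6%, 15.7% and 6.84% of tested probes were. In either direction 30.6%, 47.5%, 54.9%, 30.1% and 12.7% of tested probes were called, in the same order of comparisons. Because the members were picked by these same values, the counts describe the choice and nothing is read from them. The median difference of the members was 1.102, 3.37 and 4.53 at days 2, 5 and 8, against 0.07, -0.02 and -0.12 for all tested probes.

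With the slide as a block, 6 members were past the threshold at day 2 (Fmod came in), 8 at day 5 (Lum went out), 8 at day 8 (Bgn went out), 9 between day 5 and day 2, and 0 between day 8 and day 5. The Bgn call at day 8 was also lost when proliferation replicate 1 or 2 or day 8 replicate 1 or 3 was left out. Aspn fell out at day 2 without proliferation replicate 1, without day 2 replicate 1 and without the filter on dim probes, and without day 2 replicate 1 Fmod was called lower at day 2 with a difference of -1.18. Under normexp Fmod was called higher at day 2 and between day 8 and day 5, where 6 and 4 members were then past the threshold. The scanner flagged the spots of Prelp as non-uniform on all 12 arrays, those of Ogn and Cilp on all arrays of days 2, 5 and 8, and those of Omd on all arrays of days 5 and 8. Flags also fell on Ogn at proliferation replicates 1 and 2 and on Dcn at day 2 replicates 2 and 3. Without flagged spots the day 2 difference of Dcn, 2.70, thus rests on 1 day 2 array. Leaving flagged spots out removes Prelp, Ogn and Cilp from all of these counts and Omd from those of days 5 and 8, so that 2, 5 and 5 members were called at days 2, 5 and 8. The day 2 difference of Omd was then 0.53 and not past the threshold.

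The genes of the family stand in clusters, so the neighbours of each member were read as well, in the order of the GRCm38.p6 gene table. On chromosome 13 the order is Ecm2, Aspn, Omd and Ogn, and in that table all 4 lie within the span of Cenpp, which encodes a centromere protein. While the nested Aspn, Omd and Ogn were higher, Cenpp fell by 1.30 ± 0.14 at day 5 and by 1.89 ± 0.14 at day 8 on the log2 scale (limma adjusted p = 2.15e-05 and 1.06e-06). Iars, an isoleucine tRNA ligase gene beyond Ogn, fell by 0.61 ± 0.14 at day 8 (adjusted p = 0.00334). Ippk, beyond Cenpp, differed by -0.35 ± 0.21 at day 8 and did not pass the threshold (adjusted p = 0.182). On chromosome 10 Dcn and Lum stand beside Kera and Epyc, further genes of the family, neither of which stood well above background throughout any stage. The other tested neighbours there, Btg1 and Eea1, differed by -0.03 ± 0.26 and -0.23 ± 0.16 at day 8 and did not pass the threshold (adjusted p = 0.934 and 0.24). Eea1, which tethers endosomes, was lower at the earlier stages, by -1.38 ± 0.16 at day 2 and -0.76 ± 0.16 at day 5 (adjusted p = 0.000193 and 0.00243).

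On chromosome 1 the order is Optc, Prelp and Fmod. Opticin (Optc), a class III relative found in the eye, rose with them, by 1.39 ± 0.14 at day 2, 3.14 ± 0.14 at day 5 and 2.91 ± 0.14 at day 8 (limma adjusted p = 9.98e-05, 4.39e-08 and 5.73e-08). Beyond Fmod stand the chitinase gene Chit1 and the chitinase-like gene Chil1. They rose by 1.80 ± 0.26 and 5.86 ± 0.18 at day 8 (adjusted p = 0.000187 and 2.87e-09). Atp2b4, beyond Optc, rose by 0.94 ± 0.24 at day 8 (adjusted p = 0.00685). Around Bgn on chromosome X, Haus7 differed by -0.05 ± 0.25 at day 8 (adjusted p = 0.889), while Trex2, an exonuclease, and Dusp9, a MAP kinase phosphatase, fell by 1.48 ± 0.39 and 2.71 ± 0.20 (adjusted p = 0.00791 and 1.08e-06). Beside Cilp on chromosome 9, Parp16 and Clpx rose at day 8 by 0.59 ± 0.16 and 0.57 ± 0.13 (adjusted p = 0.0102 and 0.00411). A little further out Igdcc4 rose by 3.68 ± 0.40 and its relative Igdcc3 fell by 1.33 ± 0.30 (adjusted p = 2.29e-05 and 0.00333). Pdcd7, beyond Clpx, differed by -0.17 ± 0.22 and did not pass (adjusted p = 0.543). All these neighbour values come from the fit without a slide term.

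The members' courses over the 12 arrays were alike to different degrees. Among the 36 pairs Pearson's r of the scaled log2 levels was highest for Dcn with Prelp, at 0.988, and for Dcn with Ogn, at 0.984, and lowest for Bgn with Lum, at 0.584. All points share the 4 stages, so these values describe likeness of course only. Among the other tested genes, the courses most like Dcn were those of Ppil6 (r = 0.997), the collagen receptor subunit Itga11 (0.997) and Hsd11b1, which activates glucocorticoids (0.996). Most like Cilp were Pi16 (0.991), the transferrin receptor Tfr2 (0.989) and collagen III, Col3a1 (0.987). Drp2 (0.997), Epb41l4b (0.993) and the clock gene Per2 (0.993) came closest to Ogn, and Art5 (0.997), the bone morphogenetic protein antagonist Chrd (0.995) and Slc6a2 (0.995) to Prelp. The closest to Lum were Nrxn3, Dnaaf4 and Rgs17 at 0.983 to 0.986, and to Omd Ahr, Unc13c and Cacna2d1 at 0.981. The closest to Aspn was the myosin light chain Myl1 (0.989), and to Fmod the muscle caveolin Cav3 (0.966). For Bgn no gene came closer than Tom1 (0.950).

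Other relatives in the list of small leucine-rich proteins were mostly too weak to test. Of 10 listed, 4 were tested and 3 rose at day 8: Optc, the Cilp paralogue Cilp2 by 1.496 ± 0.30 and podocan-like 1 (Podnl1) by 0.67 ± 0.13 (limma adjusted p = 0.0018 and 0.0014). Tsukushi (Tsku) differed by -0.03 ± 0.44 and did not pass. At day 2, 1 of the 4 rose and at day 5, 3 did. As a reference for this and the following lists, 18.3% of all tested probes rose and 12.3% fell at day 2. The shares were 23.7% and 23.9% at day 5, and 25.3% and 29.6% at day 8. Cilp2 at proliferation was above background on 2 of 3 arrays. A fit with a slide term kept the call of 1 of them, Optc. Under normexp Cilp2 differed by 0.78, and without non-uniform spots the Podnl1 call ended (adjusted p = 0.14).

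The collagens and their fibril partners, to which these proteoglycans bind, moved in both directions. Of 20 tested genes, 13 rose and 3 fell at day 8, with a median of 1.81 against -0.12 for all tested probes, of which 25.3% rose and 29.6% fell. At day 2, 10 rose and 2 fell, and at day 5, 12 rose and 4 fell. The collagen VI chains Col6a2 and Col6a1, which form beaded filaments around muscle fibres and bind biglycan and decorin, rose by 5.73 ± 0.16 and 4.57 ± 0.25 (limma adjusted p = 1.73e-09 and 1.27e-07). Col6a2 had median signals of 1185 at proliferation, 2967 at day 2, 37198 at day 5 and 50671 at day 8. Col6a3, another collagen VI chain of the list, did not stand well above background throughout any stage and was not tested. Collagen III (Col3a1) rose by 3.19 ± 0.15 (adjusted p = 4.37e-08). Collagen I (Col1a1), the main chain of thick fibrils, fell by 1.79 ± 0.47, Col2a1 of cartilage fell by 1.35 ± 0.25 and the matricellular Thbs2 fell by 1.34 ± 0.14 (adjusted p = 0.00744, 0.000934 and 1.98e-05). Col2a1 was well above background on all 3 proliferation arrays but on 2 of 3 at day 8, with a median signal of 11.4 there. Under the slide block 11 of the list were higher and 1 lower. It ended the calls of Col1a1 and Col2a1, and under normexp the Col2a1 difference was 0.11. Without non-uniform spots it was -0.69 and not past the threshold, and under quantile scaling -0.82.

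The enzymes that build glycosaminoglycan chains showed small differences. Of 28 tested, 9 rose and 4 fell at day 8, with a median of 0.16. At day 2 the counts were 7 and 3, and at day 5 they were 7 and 5. Among all tested probes 25.3% rose and 29.6% fell at day 8. The largest increases were those of Papss2, which makes the sulfate donor, by 1.05 ± 0.21, of the linker enzyme B3galt6 by 0.94 ± 0.17 and of the sulfotransferase Chst15 by 0.87 ± 0.18 (limma adjusted p = 0.00149, 0.000978 and 0.00191). Ugdh, which makes the UDP-glucuronate for the chains, fell by 0.78 ± 0.12, Chst1 of keratan sulfate fell by 0.70 ± 0.21 and the dermatan sulfate epimerase Dse fell by 0.60 ± 0.19 (adjusted p = 0.0002, 0.0157 and 0.0214). With the slide as a block 0 of the list were higher and 1 lower, and of the 6 genes named Ugdh alone kept its call. With non-uniform spots left out Ugdh differed by -0.31 and Chst1 by -0.05, and both calls ended (adjusted p = 0.498 and 0.927). The Dse call ended without proliferation replicate 2 or day 8 replicate 1 or 3 (adjusted p = 0.0762, 0.076 and 0.0785).

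Of 23 tested growth factors and receptors that members are known to bind, 15 rose and 5 fell at day 8, with a median of 0.63. At day 2, 8 rose and 4 fell, and at day 5, 10 rose and 3 fell. The day 8 shares of all tested probes were 25.3% higher and 29.6% lower. Insulin-like growth factor 1 (Igf1), a growth factor of muscle and cartilage, rose by 9.47 ± 0.31 (limma adjusted p = 3.75e-09). Its median signals were 8.90 at proliferation, where 1 of 3 arrays was above background, 129 at day 2, 2106 at day 5 and 6825 at day 8, and under normexp its difference was 6.63. Bmp4, a bone morphogenetic protein, rose by 3.16 ± 0.23 and Pdgfb by 2.15 ± 0.19 (adjusted p = 1.01e-06 and 3.77e-06). The receptor Kdr fell by 3.18 ± 0.26 and was above background on 1 of 3 arrays at day 8 (adjusted p = 2.37e-06), and the biglycan receptor Tlr4 fell by 1.74 ± 0.21 (adjusted p = 4.61e-05). Myostatin (Mstn), which decorin binds, was well above background on 1 of 3 arrays at proliferation and on no day 8 array. Its fitted difference of -1.17 ± 0.34 (adjusted p = 0.013) thus rests on signals near background. In the slide-blocked fit 8 of the list were higher and 1 lower, and the Tlr4 and Mstn calls ended. Under normexp the Mstn difference was 0.35, that of Kdr -0.57 (adjusted p = 0.00773) and that of Tlr4 -0.94. The Mstn call also ended under quantile scaling, without non-uniform spots and without proliferation replicate 3 (-0.50, -0.52 and -0.87).

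Of 19 tested proteases and helpers that process or cleave such proteins, 12 rose and 3 fell at day 8, with a median of 0.94. At days 2 and 5 the counts were 9 and 12 higher, and 2 and 2 lower. Among all tested probes 25.3% rose and 29.6% fell at day 8. The matrix metalloproteases Mmp3 and Mmp2 rose by 3.87 ± 0.22 and 2.74 ± 0.20, and Adamts9 rose by 3.22 ± 0.32 with 1 of 3 proliferation arrays above background (limma adjusted p = 1.64e-07, 1.15e-06 and 9.81e-06). Bmp1, which cuts the propeptides of biglycan and osteoglycin, rose by 0.94 ± 0.16 (adjusted p = 0.000651) and was named after its values were seen. Pcolce2, which helps Bmp1 on procollagen, fell by 1.44 ± 0.17, the protease inhibitor Timp1 fell by 1.19 ± 0.19 and Mmp9 fell by 1.13 ± 0.25 (adjusted p = 3.14e-05, 0.000322 and 0.00324). Under the slide block 6 were higher and 1 lower, and the Timp1 and Mmp9 calls ended. With non-uniform spots left out the Pcolce2 difference was -0.49 and its call ended (adjusted p = 0.376), as did that of Mmp9 at -0.47 (0.323). Under normexp Adamts9 differed by 1.29, and Mmp9 by -0.50 with its call lost (0.0662).

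Of 15 tested other matrix and cell-surface proteoglycans, 8 rose and 2 fell at day 8, with a median of 0.62. The counts were 3 and 1 at day 2 and 4 and 3 at day 5. The day 8 shares of all tested probes were 25.3% higher and 29.6% lower. Serglycin (Srgn) of secretory granules rose by 2.35 ± 0.13, the glypican Gpc6 by 1.83 ± 0.17 and perlecan (Hspg2) of basement membranes by 1.15 ± 0.19 (limma adjusted p = 1.12e-07, 6.27e-06 and 0.000429). Col18a1 and the hyaluronan receptor Cd44 fell by 1.18 ± 0.18 and 0.86 ± 0.13 (adjusted p = 0.000254 and 0.000231). Without proliferation replicate 3, or without day 8 replicate 1, 5 of the list were higher. In the slide-blocked fit 3 were higher and 0 lower, and of the 5 genes named Srgn and Gpc6 kept their calls.

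**Figure D4:**
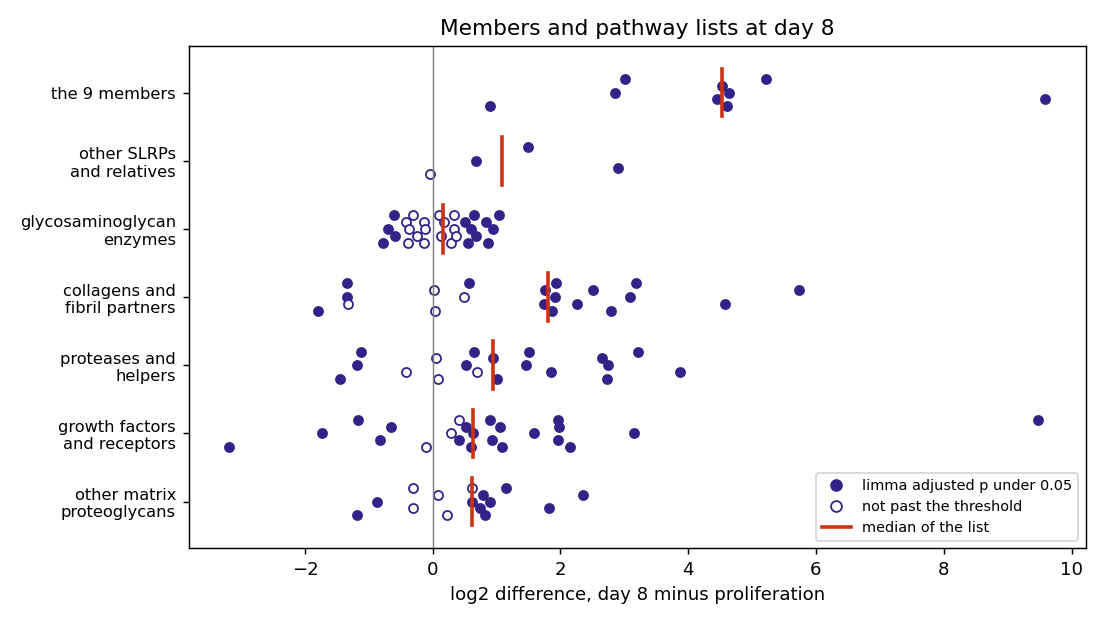
Log2 difference at day 8 minus proliferation (x axis) of the 9 members and of the tested genes of 6 pathway lists (rows). Filled points have a limma adjusted p under 0.05, open points do not, and red bars are medians, which run from 4.53 for the members to 0.16 for the glycosaminoglycan enzymes.

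Markers of other cell types were read beside the members, as summed levels in units of each array's 75th percentile. The fibroblast markers were higher late: the sum ran from 1.32 to 2.19 on the proliferation arrays, from 1.05 to 1.94 at day 2, from 3.12 to 4.41 at day 5 and from 5.48 to 7.0 at day 8. Of 7 fibroblast markers 6 were tested, and 5 rose at day 8, with 64.2-fold for dermatopontin (Dpt), 13.8-fold for Fap, 3.36-fold for Postn, 2.66-fold for Pdgfra and 2.06-fold for Dpep1. The limma adjusted p-values were 3.49e-06, 9.02e-08, 0.00415, 0.000185 and 0.00173. Thy1 did not pass (adjusted p = 0.695) and Tcf21 was above background on 1 array, at proliferation. Dpt itself binds decorin. At proliferation Dpt was well above background on 2 of 3 arrays, with signals from 6.25 to 33.9, so its folds rest on a level near background. At day 2, 2 of the 6 rose. Dpt had a median signal of 284 at day 2, against 27.7 at proliferation (21.2-fold, adjusted p = 0.000206), and Fap was 2.55-fold higher (adjusted p = 0.000833). Postn, which outweighs the others in the sum, had a median of 694 at day 2, against 1991 at proliferation, and did not pass (adjusted p = 0.087). The part of fibroblast-like RNA in the members' values was not tested.

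Cartilage, bone and tendon, where several members were first described, were checked by their own markers. Of 8 cartilage markers, 3 were tested and all 3 (Sox9, Col2a1 and Matn3) fell at day 8. Col2a1 entered the test through proliferation alone and was well above background on 2 of 3 arrays at each later stage. Its call ended under normexp, with the slide as a block and without non-uniform spots. Comp and Hapln1 were not above background on any array, and Acan was on 1. The cartilage sum ran from 5.67 to 6.69 at proliferation, 6.46 to 6.65 at day 2, 3.80 to 4.99 at day 5 and 3.85 to 5.47 at day 8. Of 7 bone markers, 5 were tested, 1 rose and 1 fell at day 8, and Alpl was not above background on any array. The bone sum was 8.97 to 11.3, 7.34 to 8.18, 6.70 to 7.45 and 7.38 to 10.8 at the 4 stages. Of 5 tendon markers 3 were tested and Scx rose at day 8, by 0.60 ± 0.23 (adjusted p = 0.0464). The tendon sum was 16.8 to 29.4, 21.3 to 33.3, 43.8 to 48.6 and 27.2 to 37.0. Of 4 fat markers 1 was tested, Pparg, which fell, and Adipoq and Plin1 were not above background on any array. The fat sum was 3.99 to 5.23, 2.19 to 2.88, 1.42 to 1.48 and 1.49 to 1.67. Of 6 macrophage markers 3 were tested, Aif1 and Csf1r rose and Tyrobp fell at day 8, and Adgre1 was not above background on any array. The macrophage sum, without Cd68, stayed between 0.091 and 0.236 on all arrays. Of 4 endothelial markers, all tested, Tek rose and 2 fell at day 8, and their sum was 0.222 to 0.303, 0.815 to 1.1, 0.701 to 0.908 and 0.498 to 0.639. The muscle list itself rose in 7 of 7 genes at day 5 and in 5 of 7 at day 8, with a median of 5.94 and 5.75.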

How the data were processed

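RNA of C2C12 cells, 3 samples per stage, was hybridised to 12 Agilent arrays of 1 colour. The deposited files hold spot values from the scanner software, for which the submitters' processing notes name Agilent Feature Extraction 10.5.1.1. The deposited intensity used is the processed signal of the green channel, which that software had corrected for background per the file headers, and no normalization between arrays is recorded there. Of 39448 spots, 1417 were controls and 200 carried negative probes, and without them there remained 37831 spots of 37246 probes. Per array, 56.9% to 69.5% of spots were well above background and 0 were saturated. The number of arrays limits the precision.

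Population-outlier spots were dropped, log2 values of a probe's spots were averaged and each array's 75th percentile was subtracted. Probes that stood well above background throughout some stage (22962, or 61.6%) were fitted with limma 3.58.1 (lmFit and eBayes) in R 4.3.3, and called at a Benjamini-Hochberg adjusted p below 0.05. The 12 arrays entered together, and 5 comparisons were drawn from the fit: days 2, 5 and 8 against proliferation, day 5 against day 2 and day 8 against day 5. The p-values thus reflect how far these 12 arrays spread. The fitting code was tested on simulated data.

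Accessions were given symbols through RefSeq tables of GRCm38.p6, which named 22216 probes of 19259 symbols. The array headers name another build (mm9), so no gene coordinates of the array are given. A list gene is shown by its brightest tested probe. From each of 6 pathway lists (137 genes) up to 3 genes per direction past the threshold at day 8, those with the largest change, are named. Bmp1, Tsku and the neighbouring genes fall outside this rule and were named after their values were seen. For each member the 3 genes with the highest Pearson r over the 12 arrays were taken. For Fmod, which had no proliferation array well above background, folds were also taken against a floor. That floor was the lowest signal well above background on each such array. Figures were drawn with matplotlib 3.10.9 (Python 3.11.15), and tables were read with data.table (version 1.17.8). The members, lists and markers were chosen with earlier results of these data known.

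Alternatives were normexp (offset 50), quantile scaling, a percentile over probes detected on every array, no filter on dim probes, non-uniform spots left out, the slide or the replicate number as a block, the median over a gene's probes, and each array left out in turn. Normexp used the median spot signal, because the files analysed here hold that column and the mean signal was not used here.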

Additional observations from a re-analysis of the deposited data

How the results depend on the processing

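The members' day 5 and day 8 values against proliferation kept their sign under each of the 21 alternatives that gave a value, and Fmod, Cilp, Aspn and Lum, all weak in growing cells, had the widest ranges. Limits are the 3 arrays per stage, signals near background at proliferation, slides that hold proliferation with neither day 5 nor day 8, and non-uniform flags on 5 members (on 2 arrays for Dcn). Causes of the changes below were not tested, except that leaving out flagged spots removes probes. Settings not listed (quantile scaling, the percentile over probes detected on every array, the median over a gene's probes) moved no count by over 1.5 times.

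Under normexp 1834 probes were called between day 8 and day 5, against 2920, and Col2a1 (0.11) and Mstn (0.35) changed sign at day 8. Without the filter on dim probes the day 8 against day 5 count was 1307, and 4 other matrix proteoglycans were lower, against 2. With the slide as a block 3550, 5216 and 3993 probes were called at days 2, 5 and 8 against proliferation (7029, 10917 and 12598 without it), and 737 between day 8 and day 5, where 0 members remained past the threshold. In that fit the day 8 counts of higher and lower genes were 1 higher relative of the family, 0 and 1 glycosaminoglycan enzymes, 11 and 1 collagens and partners, 6 and 1 proteases, 8 and 1 growth factors and receptors, and 3 and 0 other proteoglycans.

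With non-uniform spots left out, 6816 and 6218 probes were called at days 5 and 8 against proliferation, 2285 between day 5 and day 2 (6909 with them) and 502 between day 8 and day 5. Members called were then 2, 5 and 5 at days 2, 5 and 8, 4 between day 5 and day 2 and 1 between day 8 and day 5. At day 8 the lists had 0 lower glycosaminoglycan enzymes, 7 and 0 collagens and partners higher and lower, 7 and 0 proteases, 8 and 1 growth factors and receptors and 5 and 0 other proteoglycans. With the percentile taken from all spots instead, an alternative chosen after seeing the data, the probe counts were 3465, 5727 and 7054 at days 2, 5 and 8, 3661 between day 5 and day 2 and 1417 between day 8 and day 5. Members called were again 2, 5, 5, 4 and 1. The lists then had 6 and 1 collagens and partners, 7 higher proteases, 6 and 2 growth factors and receptors and 4 and 0 other proteoglycans.

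The share of calls that were higher at days 2, 5 and 8 was 59.9%, 49.8% and 46.1%. It was 73.0%, 60.2% and 60.5% under normexp, 96.4%, 88.5% and 79.6% without non-uniform spots, and 56.5% at day 8 with the slide block. Between day 8 and day 5 it was 46.2%, against 57.1% under quantile scaling, 59.2% when slides were blocked and 23.3% with flagged spots removed, which also gave 60.6% between day 5 and day 2, against 47.7%. The median of all tested probes at days 2, 5 and 8 was 0.07, -0.02 and -0.12. It was 0.20, 0.14 and 0.15 under normexp, 0.73, 0.80 and 0.52 without non-uniform spots, -0.12, -0.32 and -0.52 without the filter, and at day 8 0.02 under quantile scaling and 0.03 with the slide block.

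With each array left out in turn, 1129 to 3439 probes were called between day 8 and day 5 (1129 without day 5 replicate 1, 1670 without day 5 replicate 2, and 1479, 1781 and 1475 without day 8 replicates 1, 2 and 3), and 1 to 4 members (1 without day 5 replicate 1 or day 8 replicate 3). Members called lower at day 2 numbered 0 to 1 (Fmod without day 2 replicate 1), and other matrix proteoglycans higher at day 8 numbered 5 to 8. The replicate numbers share only a number: deviations of same-numbered arrays correlated at -0.16 to 0.24 (median 0.01) and of differently numbered arrays at -0.26 to 0.22. With the replicate number as a block 6769, 10823 and 12476 probes were called at days 2, 5 and 8 and 2483 between day 8 and day 5, and the same members were past the threshold in all 5 comparisons.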
